A study of Oryza sativa with 20 samples.

Results

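Transcripts of 10 genes of ethylene synthesis and signalling were followed in rice leaves during feeding by the leaf folder Cnaphalocrocis medinalis. The genes were taken by identifier from the 92858 identifiers that each library lists. They are the ACC synthase genes ACS1 (OS03G0727600), ACS2 (OS04G0578000) and ACS6 (OS06G0130400), and 3 ACC oxidase (ACO) genes that are told apart by identifier (OS02G0771600, OS09G0451000 and OS09G0451400, written below as Os02g0771600, Os09g0451000 and Os09g0451400). The receptor genes ETR2 (OS04G0169100) and ERS1 (OS03G0701700) and the signalling genes EIN2 (OS07G0155600) and EIL1 (OS03G0324300) complete the list. No threshold on measured values was used to choose them, but they were chosen with earlier results of these data known.

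RNA-seq was run on leaves of 5-week-old rice (strain Minghui 63) that a larva had fed on for 1, 6, 12 or 24 h, and on unfed leaves (0 h). Every group had 4 libraries, each a pool of 5 plants. A single starved larva of the 3rd instar was kept in a Parafilm bag around the second leaf from the top. The 0 h plants carried the same bag with no insect. All leaves were harvested together, with larvae added at staggered times. The time points thus differ in how long the larva had fed and in the clock time at which feeding began, which cannot be told apart. They do not differ in the time of harvest.

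Ethylene is a gaseous plant hormone. ACC synthases make its precursor ACC from S-adenosylmethionine, and ACC oxidases turn ACC into ethylene. The receptors sit in the endoplasmic reticulum and hold the pathway off while no ethylene is bound. EIN2, a membrane protein, passes the signal on once they are inactivated, and EIL1 is a transcription factor of the EIN3 family at the end of the chain. Ethylene acts beside jasmonic acid in the responses of plants to chewing insects, and ACS2 is known in rice from work on ethylene released after insect attack.

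The libraries held 17796551 to 22090160 fragments on genes, as recovered from the FPKM values. FPKM, the deposited unit, scales fragments by gene length and by the total of the library, so levels of different genes can be compared per length. On the first principal component of all 35755 identifiers above 0, 1 h replicate 4 had a score of 87.1, against -28.2 to 25.8 in the other 1 h libraries and 107.6 to 157.1 at 6 h. Calls that changed without it are given beside the result. Each tissue sample is a bulk of leaf cells, in which fewer cells of a type and less RNA per cell cannot be told apart.

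The 10 genes differed widely in level. ACS6 was highest, with 89.4 to 125 FPKM over the 20 libraries. The ACO gene Os02g0771600 followed with 20.4 to 74.7 FPKM and EIL1 with 11.6 to 17.95 FPKM, and none of these 3 ranges overlapped. Next came ACS2 with 1.28 to 17.4 FPKM, ETR2 with 2.01 to 6.22 FPKM and EIN2 with 1.22 to 2.72 FPKM. The range of ACS2 overlapped those of both EIL1 and ETR2, and that of ETR2 overlapped that of EIN2, although ETR2 was at least 1.38 times EIN2 within each library. ERS1 had 0.341 to 1.03 FPKM, below every value of EIN2. It was not separated from the ACO gene Os09g0451000 (0.0363 to 1.36 FPKM), nor was this gene from ACS1 (0.0237 to 0.574 FPKM). The ACO gene Os09g0451400 was listed at 0 in all 20 libraries, which allows up to 3 fragments in each.

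**Figure D1:**
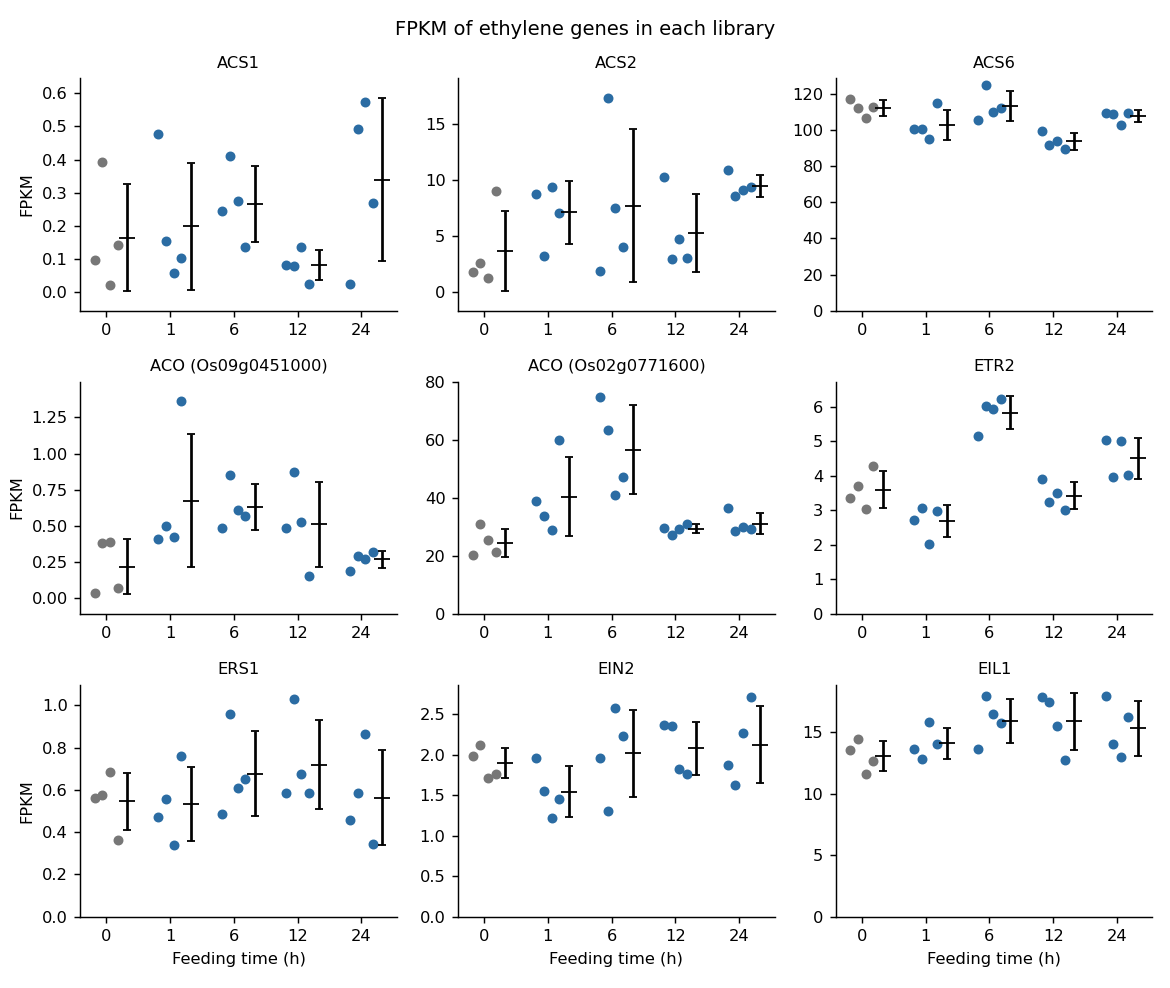
FPKM (vertical axes, linear, each with its own scale) of the 9 detected genes in each library against feeding time in hours. Grey points are 0 h libraries and blue points feeding libraries in the order of replicate number, and the bars give the mean ± SD of 4 libraries. The ACO gene Os02g0771600 and ETR2 are highest at 6 h, while ACS6 is lowest at 12 h and ACS2 is scattered at every time but 24 h.

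Each feeding time was compared with 0 h by limma-trend on log2(FPKM + 1) in one fit of 20 libraries, and a gene was called where the FDR, the p adjusted by Benjamini-Hochberg over all 24058 tested identifiers, was under 0.05. Of the 10 genes, 8 passed the filter of at least 0.5 FPKM in at least 4 libraries, and ACS1 and the ACO gene Os09g0451400 did not. In all, 3 of the 8 changed at 1 feeding time or more, against 40.1% of all tested identifiers. The ACO gene Os02g0771600 and ETR2 rose at 6 h, and ACS6 fell at 12 h.

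At 1 h none of the 8 genes was called, against 3.06% of all tested identifiers (limma-trend). At an unadjusted p under 0.05 there were 4, against 17.2% of all, of which ACS6 and ETR2 were lower and both tested ACO genes higher. The 4 include Os09g0451000, which passed the filter only through feeding libraries, so its rise over 0 h was favoured beforehand. Limma-voom on the recovered fragments called 0 of the 8, while 472 of all 24058 tested identifiers rose and 359 fell. At 6 h 2 of 8 genes were called, against 23.6% of all tested identifiers, and both rose, as 18.6% of all did. At 12 h 1 of 8 was called, against 14.4% of all, and it fell, as 8.63% of all did. At 24 h none was called, against 20.7% of all, with 2 at an unadjusted p under 0.05 (32.8% of all). Limma-voom called 1 there, while 3283 of all 24058 rose and 2054 fell. Os09g0451000 was left out of the medians because of the filter. Over the other 7 the median log2 fold change was -0.02 at 1 h, beside 0.01 over all tested identifiers, and 0.27 at 6 h, beside 0.10. At 12 h it was 0.15, beside -0.03, although the only call there was a fall, and at 24 h it was 0.21, beside 0.03.

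Of the 3 genes listed as ACC synthases, ACS6 had most of the transcript signal (other ACC synthase genes were not analysed here). Its mean share of their summed FPKM was between 91.6% (24 h) and 96.8% (0 h). The rest was almost wholly ACS2, with a mean share of 8.10% at 24 h and 3.09% at 0 h. The gene names were not checked against an annotation, and enzyme activity was not measured. These shares of transcript therefore do not give the share of each gene in ACC synthesis.

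ACS6 fell at 12 h. Its FPKM was 99.8, 91.6, 94.1 and 89.4 in the 12 h libraries, against 117, 112, 107 and 113 in the 0 h libraries. All 12 h values lay below all 0 h values, as they did for 11.6% of the tested identifiers. Its log2 fold change of -0.26 (SE 0.06, FDR = 0.0079) stayed called with each library left out and under each of the other fits, with an FDR of at most 0.028. At 6 h ACS6 had 106, 125, 110 and 112 FPKM. The 12 h libraries were below all of these, as for 25.5% of the tested identifiers, with a log2 fold change between 12 and 6 h of -0.27 (FDR = 0.0025). This step depended on the scaling between libraries, since it was -0.08 with median-of-ratios factors (FDR = 0.31) and -0.10 with upper-quartile factors (FDR = 0.20). At 24 h ACS6 had 110, 109, 103 and 110 FPKM, all above the 12 h libraries, as for 9.53% of the tested identifiers. The change of 0.20 between 24 and 12 h was not called (SE 0.06, FDR = 0.086), except without 1 h replicate 4 (FDR = 0.0495). This library is in neither group, so the fold change stayed at 0.20 while the SE, shared over the fit, fell to 0.05. Without this library the step of ACS6 between 6 and 1 h was also called, at 0.19 (FDR = 0.028).

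ACS2 had 1.84, 2.59, 1.28 and 9.02 FPKM at 0 h. It had 8.80, 3.21, 9.44 and 7.10 FPKM at 1 h and, in the 6 h libraries, 1.92, 17.4, 7.49 and 4.08 FPKM. At 12 h it had 10.3, 3.00, 4.77 and 3.08 FPKM, and the 24 h libraries had 10.9, 8.63, 9.17 and 9.40 FPKM. The 24 h libraries lay close together, and 3 of them were above all 0 h libraries. The libraries of each other time point were more widely scattered, and 0 h replicate 4 overlapped the 24 h range.

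Mean FPKM of ACS2 was 9.53 ± 0.975 at 24 h and 3.68 ± 3.60 at 0 h (SD, n = 4 each), a ratio of 2.59. A log2 fold change of 1.42 (SE 0.51) did not pass the threshold (FDR = 0.056 by limma-trend). It did pass without 0 h replicate 4, with a log2 fold change of 1.88 (FDR = 0.012), and also without 6 h replicate 1 (FDR = 0.037), 6 h replicate 2 (FDR = 0.031) or 12 h replicate 1 (FDR = 0.046). The 6 and 12 h libraries are in neither group, so without them the fold change stayed at 1.42 while the shared SE fell. ACS2 at 24 h passed in 3 other fits as well: with a pseudocount of 0.1 (FDR = 0.049), with the groups of 24 and 0 h fitted alone (FDR = 0.045) and by limma-voom (FDR = 0.033). Over all alternatives the FDR ranged up to 0.16. Log2 fold changes against 0 h at 1 h (0.97), 6 h (0.83) and 12 h (0.55), each with an SE of 0.51, did not pass.

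The spread of ACS2 between replicates was wide for its level. Its SD within time points was 0.78 on the log2 scale, larger than or equal to that of 97.5% of the 1801 identifiers within 0.25 log2 units of its mean level. At 0 h the coefficient of variation was 97.6%, and the counting of a mean of 167 fragments alone would give 7.73%. At 24 h it was 10.2%, beside 4.94% from counting. ACS6 showed the reverse, with an SD of 0.08, at the 14.4th percentile of the 500 identifiers of like level. The ACO gene Os02g0771600 (SD 0.30) stood at the 90.9th percentile of 1461 such identifiers.

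**Figure D2:**
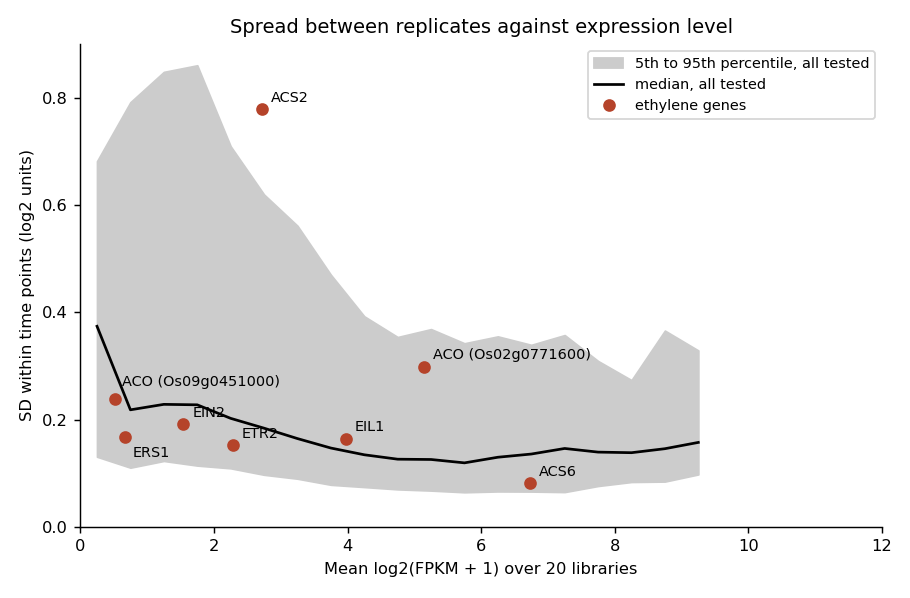
SD of log2(FPKM + 1) within time points (vertical axis, log2 units, 15 residual degrees of freedom) against mean log2(FPKM + 1) over 20 libraries (horizontal axis). The line is the median and the grey band the 5th to 95th percentile of all tested identifiers in steps of 0.5 in level, and points are the 8 tested ethylene genes. ACS2, at an SD of 0.78, lies above the band, and the other 7 lie within it.

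ACS1 was near the limit of detection, with 1 to 25 fragments in a library and its fewest at 12 h, at 1 to 5 fragments. Its mean was 0.0814 ± 0.0451 FPKM in 12 h leaves, 0.340 ± 0.246 FPKM in 24 h leaves and 0.164 ± 0.161 FPKM in 0 h leaves (SD, n = 4 each). ACS1 was too low for the fit. In exact permutation tests of 4 libraries against 4 (two-sided), the smallest p of its 7 comparisons was 0.057, for 12 against 6 h. Counting alone would give a coefficient of variation of 37.8% at 0 h and 26.7% at 24 h, and those observed were 97.9% and 72.4%. No difference of ACS1 was detected with 4 libraries per time.

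Of the summed FPKM of the 3 listed ACO genes, Os02g0771600 held 96.9% to 99.8% in every library (other ACO genes were not analysed here). It rose at 6 h. Its FPKM was 74.7, 63.6, 40.9 and 47.4 in the 6 h libraries, against 20.4, 30.9, 25.6 and 21.2 in the 0 h libraries. All 6 h values were above all 0 h values, as they were for 21.4% of the tested identifiers. The ratio of means was 2.31, with a log2 fold change of 1.15 (SE 0.20, FDR = 0.0007). No other of the 8 genes had a called log2 fold change over 1 in size.

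The level of Os02g0771600 fell between 6 and 12 h. The 12 h libraries held 29.7, 27.4, 29.4 and 31.1 FPKM, all below the 6 h libraries, as for 25.5% of the tested identifiers. The log2 fold change between 12 and 6 h was -0.89 (SE 0.20, FDR = 0.0022). Both calls stayed with each library left out and under each other fit (FDR of at most 0.0066 for 6 against 0 h and 0.0097 for 12 against 6 h). At 24 h the gene had 36.4, 28.7, 29.9 and 29.4 FPKM. Its mean was 29.4 ± 1.54 FPKM at 12 h, 31.1 ± 3.58 FPKM at 24 h and 24.5 ± 4.83 FPKM at 0 h (SD, n = 4 each). Log2 fold changes of 0.27 at 12 h (FDR = 0.42) and 0.34 at 24 h (FDR = 0.25) against 0 h did not pass.

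At 1 h Os02g0771600 had 39.0, 33.8, 28.9 and 60.0 FPKM, of which 3 libraries were above all 0 h libraries. The change of 0.66 on the log2 scale (SE 0.20) did not pass (FDR = 0.079), and it was called only without 1 h replicate 3 (FDR = 0.045). Without 1 h replicate 4, the library that stood apart, it was 0.46 (FDR = 0.23). The further step of 0.49 between 6 and 1 h was not called (FDR = 0.10). It was called without 1 h replicate 4, at 0.70 (FDR = 0.011), and without 6 h replicate 3, at 0.63 (FDR = 0.0499).

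The ACO gene Os09g0451000 was low throughout. Libraries of 0 h held 1 to 11 of its fragments, those of 1 h 10 to 35, those of 6 h 12 to 21, those of 12 h 4 to 22 and those of 24 h 5 to 8. It passed the filter only through the 1, 6 and 12 h libraries, since no library at 0 or 24 h reached 0.5 FPKM, so its comparisons of these times with 0 h are given as a description. Its mean was 0.675 ± 0.461 FPKM in 1 h leaves, 0.629 ± 0.160 FPKM in 6 h leaves and 0.218 ± 0.191 FPKM in 0 h leaves (SD, n = 4 each). All 1 h and all 6 h libraries were above all 0 h libraries, as they were for 5.91% and 21.4% of the tested identifiers. Neither log2 fold change, 0.44 at 1 h (FDR = 0.18) or 0.43 at 6 h (FDR = 0.075), was called. The added 1 FPKM compresses the fold changes of so low a gene. The ratios of means were 3.10 and 2.88, over only 1 to 11 fragments at 0 h. At 6 h the FDR was 0.091 with no filter on low values. It was under the threshold with a pseudocount of 0.1 (0.040), by limma-voom (0.023) and without 1 h replicate 4 (0.030), a library of neither group. The filter favoured a rise over 0 h, so the FDR values under the threshold are no support for one. The coefficient of variation was 25.4% at 6 h, equal to that from counting alone, but 87.5% at 0 h, beside 40% from counting, and 68.2% at 1 h, beside 24.1%. The 1 h mean rested in part on replicate 4, with 1.36 FPKM against 0.411 to 0.503 in the other 3, and without it the log2 fold change at 1 h was 0.26 (FDR = 0.48).

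Of the receptors, ETR2 rose at 6 h. ETR2 belongs to the receptor subfamily with a degenerate kinase domain, and its overexpression is known to lower ethylene sensitivity in rice. Its FPKM was 5.14, 6.01, 5.95 and 6.22 in the 6 h libraries, against 3.36, 3.69, 3.03 and 4.30 in the 0 h libraries. The groups did not overlap, with 6 h the higher, as for 21.4% of the tested identifiers. A log2 fold change of 0.58 (SE 0.11, FDR = 0.0018) was called, as it was in every alternative with an FDR of at most 0.0086.

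ETR2 rose between 1 and 6 h and fell between 6 and 12 h. At 1 h it had 2.73, 3.06, 2.01 and 2.96 FPKM, and 3 libraries were below all 0 h libraries. The change of -0.32 at 1 h (log2, SE 0.11) did not pass (FDR = 0.14), and without 1 h replicate 4 it was -0.36 (FDR = 0.17). Between 6 and 1 h the log2 fold change was 0.89 (SE 0.11, FDR = 4.4e-05), and it stayed called with any library left out, 1 h replicate 4 included (FDR of at most 0.0003). At 12 h it had 3.92, 3.25, 3.50 and 3.00 FPKM, all below the 6 h libraries, as for 25.5% of the tested identifiers. Between 12 and 6 h the log2 fold change was -0.63 (SE 0.11, FDR = 0.00035), and this step too was called in every alternative.

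At 24 h ETR2 had 5.02, 3.98, 4.997 and 4.02 FPKM. All 4 libraries lay above those of 12 h, as for 9.53% of the tested identifiers, and 2 of them above those of 0 h. Neither the log2 fold change of 0.32 between 24 and 12 h (FDR = 0.13) nor that of 0.26 between 24 and 0 h (FDR = 0.11) passed. In the step of 24 against 12 h none of the 8 genes was called, beside 2.75% of all tested identifiers, with 2 at an unadjusted p under 0.05 (19.7% of all). Limma-voom called 0, while 501 of all 24058 rose and 144 fell.

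ERS1, a receptor of the other subfamily, was low at every time. A library held 14 to 45 of its fragments. Its mean was 0.546 ± 0.135 FPKM at 0 h, 0.533 ± 0.176 FPKM at 1 h, 0.676 ± 0.201 FPKM at 6 h, 0.719 ± 0.211 FPKM at 12 h and 0.563 ± 0.224 FPKM at 24 h (SD, n = 4 each), and the ranges overlapped throughout. Log2 fold changes against 0 h lay between -0.02 and 0.15, each with an SE of 0.13, and none passed. Its coefficient of variation was 24.7% to 39.7% over the 5 time points, and counting alone would give 17.9% to 20.5%.

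Downstream of the receptors no change was called. EIN2 had a mean of 1.90 ± 0.188 FPKM at 0 h, 1.55 ± 0.309 FPKM at 1 h, 2.02 ± 0.539 FPKM at 6 h, 2.08 ± 0.327 FPKM at 12 h and 2.12 ± 0.474 FPKM at 24 h (SD, n = 4 each). At 1 h 3 of 4 libraries were below all 0 h libraries, but the log2 fold change of -0.19 did not pass (SE 0.14, FDR = 0.53). Those at the other times lay between 0.04 and 0.10 and did not pass either.

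EIL1 had 13.5, 14.4, 11.6 and 12.7 FPKM at 0 h and a mean of 13.1 ± 1.19. Its mean was 14.1 ± 1.28 FPKM at 1 h, 15.9 ± 1.79 FPKM at 6 h, 15.9 ± 2.31 FPKM at 12 h and 15.3 ± 2.22 FPKM at 24 h (SD, n = 4 each). At 6 h and at 12 h 3 of 4 libraries were above all 0 h libraries. Log2 fold changes of 0.27 at 6 h (SE 0.11, FDR = 0.098), 0.26 at 12 h (FDR = 0.15) and 0.21 at 24 h (FDR = 0.22) did not pass. EIL1 was called at 6 h only without 6 h replicate 1 (FDR = 0.049) and at 12 h only without 12 h replicate 4 (FDR = 0.047).

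**Figure D3:**
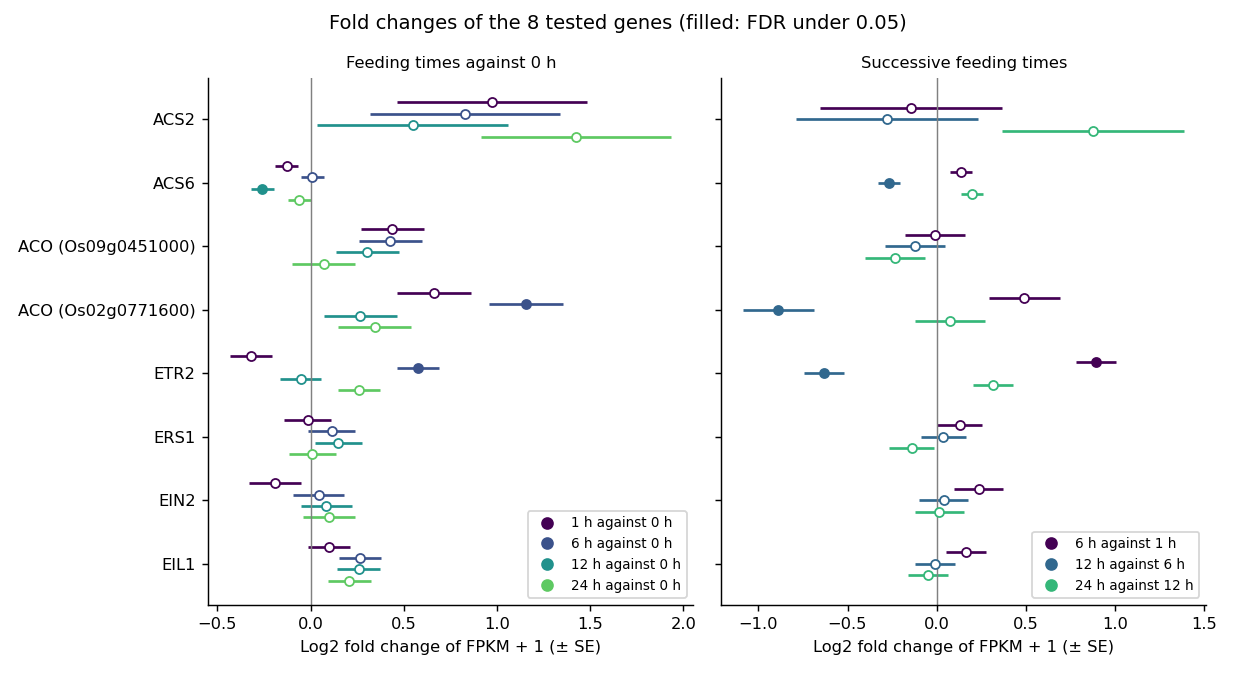
Log2 fold change of FPKM + 1 (horizontal axes) with its SE for the 8 tested genes, for each feeding time against 0 h on the left and for successive feeding times on the right. Filled points have an FDR under 0.05 by limma-trend over all tested identifiers. Filled points are the ACO gene Os02g0771600 and ETR2 at 6 h, ACS6 at 12 h, ETR2 between 6 and 1 h, and ACS6, Os02g0771600 and ETR2 between 12 and 6 h.

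Between 6 and 1 h 1 of the 8 genes was called, against 15.9% of all tested identifiers, and it rose, as 11.9% of all did. Between 12 and 6 h 3 were called, against 35.4% of all, and they fell, as 27.4% of all did. The median log2 fold change over all tested identifiers was 0.10 between 6 and 0 h, 0.10 between 6 and 1 h and -0.14 between 12 and 6 h, a general shift of the values at 6 h. Relative to this shift, the change at 6 h against 0 h was 1.05 for Os02g0771600 and 0.47 for ETR2, and that between 12 and 6 h was -0.74 and -0.49. For ACS6 the step between 12 and 6 h was -0.13 relative to the shift, and its change at 12 h against 0 h, less the median of all tested identifiers there, was -0.23.

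Ratios of genes within a library do not depend on the scaling, and 3 were computed after the values had been seen, so they carry no test. The ratio of Os02g0771600, of the last enzyme step, to ACS6 was 0.503 ± 0.148 at 6 h and 0.219 ± 0.0470 at 0 h (SD, n = 4 each). It was 0.303 to 0.522 in the 1 h libraries and 0.297 to 0.348 in the 12 h libraries, against 0.174 to 0.276 at 0 h. Feeding libraries at 1, 6 and 12 h were thus all above the 0 h libraries, and those at 24 h (0.264 to 0.332) overlapped them. How many other gene ratios separate in this way was not computed. Os02g0771600 alone was not called at 1 h (FDR = 0.079) or 12 h (FDR = 0.42) against 0 h by limma-trend. ACS6, the denominator, was called lower at 12 h.

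The ratio of ETR2 to EIL1 was 0.127 to 0.240 at 1 h, against 0.249 to 0.339 at 0 h. At 6 h it was 0.336 to 0.395, at 12 h 0.187 to 0.235 and at 24 h 0.247 to 0.385. The 1 h and 12 h libraries were below all 0 h libraries. How many other gene ratios separate in this way was not computed. By limma-trend against 0 h, ETR2 alone was not called at 1 h (FDR = 0.14) or 12 h (FDR = 0.80). Neither was EIL1 (FDR = 0.72 at 1 h and 0.15 at 12 h). The ratio of ETR2 to EIN2 was 2.31 to 4.61 at 6 h, against 1.69 to 2.43 at 0 h, and the ranges overlapped. Its ranges at 1 h (1.39 to 2.04) and 12 h (1.38 to 1.91) overlapped that of 0 h too.

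**Figure D4:**
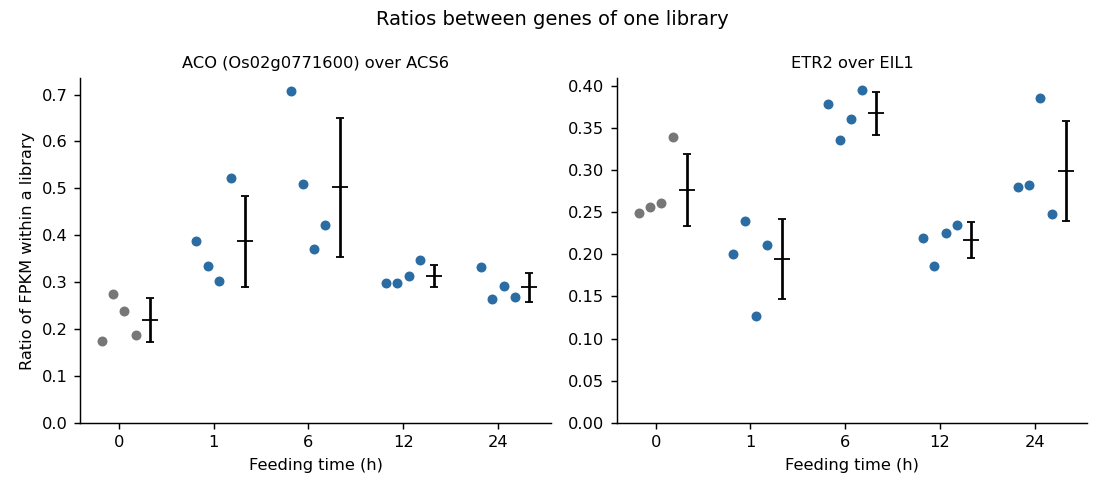
Ratio of the FPKM of 2 genes within each library (vertical axes, no unit) against feeding time in hours. Grey points are 0 h libraries and blue points feeding libraries, and bars give the mean ± SD of 4. The ratio of the ACO gene Os02g0771600 to ACS6 is highest at 6 h, at 0.371 to 0.708, and that of ETR2 to EIL1 is lowest at 1 and 12 h.

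The 9 genes whose identifiers the text of the study gives, of the jasmonate, calcium, MAP kinase and WRKY branches, were set beside the ethylene genes. Since the study named them for their response in these samples, their counts are no independent evidence. At 1 h 2 of 9 rose (1.77% of all tested identifiers did), and at 6 h 5 rose (18.6% of all). At 12 h 2 rose (5.76% of all) and 1 fell (8.63% of all), and at 24 h 7 rose (12.7% of all) and 1 fell (8.03% of all). Patterns were compared by the root-mean-square difference between mean log2(FPKM + 1) at the 5 time points, each gene centred on its own mean. Among these 9, the allene oxide cyclase gene AOC of jasmonate synthesis was most like ACS2, at 0.22, where the profile of ACS2 itself had a root-mean-square size of 0.47. ACS2 was not called at any feeding time, and its SD within time points, 0.78, was larger than its profile. Whether the likeness exceeds this scatter was not tested. The calcium-dependent protein kinase gene Os08g0540400 was most like Os02g0771600, at 0.17 beside a size of 0.40. This kinase gene rose at 6 h (log2 fold change 0.69, FDR = 0.0096) and fell between 12 and 6 h (-0.76, FDR = 0.0029). It was picked for its likeness, so these calls describe its profile and are no separate support for the likeness. The SD of Os02g0771600 within time points was 0.30, and whether the likeness exceeds this scatter was not tested. Among the ethylene genes, EIN2 was most like ETR2, at 0.25 beside a size of 0.30, while the kinase gene Os12g0113500 differed from ETR2 by 0.27. A gene with no change at all would differ from ETR2 by that size of 0.30. The profile of EIN2 had a size of only 0.11 and no called change, so this likeness says little.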

How the data were processed

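The authors, per the methods of the study and the processing notes, mapped quality-filtered reads with HISAT2 2.09 on IRGSP-1.0, counted unique reads per gene with featureCounts 1.5.0-p3 and deposited FPKM. IRGSP-1.0 is japonica rice, and Minghui 63 is indica. Counting options for strand and overlapping genes were not given in the sources used here, so reads of overlapping, antisense or closely related genes, such as the ACO genes Os09g0451000 and Os09g0451400, may not be told apart. A library is a pool of leaves that the labels call a biological replicate.

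For all 35755 identifiers above 0, FPKM values were whole multiples of 1 fragment (tolerance 0.01). The main test was limma-trend (limma 3.58.1, R 4.3.3) on log2(FPKM + 1), tested on simulated data, with 15 residual degrees of freedom. The simulated data had a single setting of spread, and recovery of changes was required only of genes at higher levels. They do not vouch for recovery in genes as low as ERS1 or as scattered as ACS2. DESeq2, which the authors used, was not run, and the recovered fragments entered only limma-voom. Exact permutation tests (two-sided) cannot go below 0.029 for 4 libraries against 4, and after adjustment over 63 such tests the smallest p was 0.17. Limits from counts of 0 cover counting error only. Other values came from Python 3.11.15, numpy 2.4.6, pandas 2.3.3, scipy 1.17.1 and matplotlib 3.10.9.

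The members and lists were chosen with earlier results of these data known. All 10 genes are described, and others only by the identifiers in the text of the study and by the most alike pattern. Names go with the identifiers in the list, and 0 of the 10 were found in a RefSeq gene table of assembly ASM3414082v1, so other ethylene genes, leaf markers and sequences were not analysed here.

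Fits were repeated with 0.1 as the pseudocount, without the filter, with upper-quartile or with median-of-ratios factors, with the compared groups alone, with the replicate number as a block, by limma-voom on recovered fragments, with an absolute log2 fold change over 1 required, and with each library left out in turn. Fold changes less the median of all tested identifiers were added after the data were seen.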

Additional observations from a re-analysis of the deposited data

Results flagged for a closer look

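In 45 groups of 4 libraries with any signal, 4 held a library far from the other 3, and chance alone marks about 1 group in 20. These were ACS2 in 0 h replicate 4 (9.02 FPKM, against 1.28 to 2.59 in the others), the ACO gene Os09g0451000 in 1 h replicate 4 (1.36 FPKM, against 0.411 to 0.503), ACS6 in 24 h replicate 3 (102.6 FPKM, against 109 to 110) and the ACO gene Os02g0771600 in 24 h replicate 1 (36.4 FPKM, against 28.7 to 29.9). Without its library, ACS2 was called at 24 h against 0 h, and Os09g0451000, which had passed the filter only through feeding libraries, at 6 h against 0 h. For Os09g0451000 the library left out is in neither group, so its fold change stayed at 0.43 while the shared SE fell.

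The response differed between successive feeding times for 3 genes, by the direct comparison in the limma-trend fit. ETR2 had a log2 fold change of 0.89 between 6 and 1 h and of -0.63 between 12 and 6 h. Os02g0771600 had -0.89 and ACS6 -0.27 between 12 and 6 h, and the last was lost with either scaling factor.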

How the results depend on the processing

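The calls of the ACO gene Os02g0771600 and ETR2 at 6 h against 0 h, of ACS6 at 12 h against 0 h, and of Os02g0771600 and ETR2 between 12 and 6 h and ETR2 between 6 and 1 h held in each of 20 fits without 1 library and 7 other fits. Over 1512 combinations of gene, comparison and alternative, 17 gained a call, 2 lost one (both ACS6 between 12 and 6 h, with the scaling factors), 0 called values turned round, and 47 values that were not called changed sign. At 24 h 1 gene was called, in place of 0, with a pseudocount of 0.1, by limma-voom and with the groups fitted alone. Of all 24058 tested identifiers, 3072 rose and 1967 fell in the first of these fits. In the second 3283 rose and 2054 fell, and in the third 2793 and 1817. Called at any feeding time were 5 genes, in place of 3, with a pseudocount of 0.1 and by limma-voom, with Os09g0451000 (which passed the filter only through feeding libraries) among them. With an absolute log2 fold change over 1, 1 gene was called at 6 h, 0 at 12 h, 0 between 6 and 1 h, 0 between 12 and 6 h and 1 at any time. With 1 library left out, the number called was 0 to 1 at 1 h, 2 to 3 at 6 h, 1 to 2 at 12 h, 0 to 1 at 24 h, 1 to 3 between 6 and 1 h, 0 to 1 between 24 and 12 h and 3 to 5 at any time. Shares over all identifiers were not computed for the alternative counts at any time, with that fold change required or with 1 library left out. The replicate number as a block left these counts as they were, with 3 genes at any time. Same-numbered libraries of different time points correlated at a mean of 0.02 in their deviations, and 6 of 40 pairs exceeded 0.1, so the number does not pair them. Over all tested identifiers, 4481 rose and 1208 fell at 6 h as deposited, and 2429 and 2513 with median-of-ratios factors. ACS1, ERS1 and Os09g0451000 had at most 45 fragments in a library, and in most time points they varied more than counting alone would give.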
